A study of Drosophila melanogaster with 12 samples.

Results

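Heads of *y w* flies with a working clock were compared at the same temperature after different recent histories. The 3 thermophase samples of the thermocycle day (CA14, CA18 and CA22) were taken at 25 °C, 2, 6 and 10 h after the step up from 18 °C. The 3 samples they were set against (AA14, AA18 and AA22) came from the same hours of the next day, on which flies entrained in the same way stayed at 25 °C throughout. These 6 samples were chosen by their labels out of 12, and the other 6 (CA2, CA6 and CA10 at 18 °C, AA2, AA6 and AA10 at 25 °C) were used only where named. All flies were kept in darkness, each sample was 1 Affymetrix Drosophila Genome 1 array of RNA from many sieved heads, and the sex of the flies was not given in the sources used here. AA flies were also 1 day older than CA flies, so the warming step, the day and age cannot be told apart.

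A daily temperature cycle entrains the *Drosophila* clock in darkness, and it also drives transcripts directly. Molecular chaperones of the Hsp70 and Hsp90 families fold proteins and are induced when temperature rises sharply, while the clock runs on the activators *Clk* and *cyc* and on the repressors that they switch on, among them *per* and *tim*. Egg production is known to speed up in warm flies and to slow in the cold, and antimicrobial peptides are made mainly by the fat body, a tissue that also lies in the head.

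No transcript passed the test at an adjusted p under 0.05. Of 11145 probe sets past a filter on low values, 0 (0%) did in limma's paired test, and the smallest adjusted p was 0.0602. At an adjusted p under 0.2 there were 435 higher and 179 lower in CA, and at an unadjusted p under 0.05 there were 833 higher (7.47%) and 817 lower (7.33%). CA was higher in all 3 pairs for 1682 probe sets (15.1%) and lower in all 3 for 2658 (23.8%). The 3 CA values lay wholly above the 3 AA values for 314 (2.82%) and wholly below them for 755 (6.77%). The test rests on 3 pairs, 1 per hour, with 2 residual degrees of freedom, and its counts depended on single pairs. Without the pair of hour 22, 255 probe sets were higher and 43 lower at an adjusted p under 0.05, and without the pair of hour 18 these numbers were 53 and 9, while without the pair of hour 14 both were 0. Because none passed with all 3 pairs, levels and differences below are given as values on the log2 scale, on which 1 unit is a 2-fold change, and errors are the SD of the 3 paired differences (n = 3).

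Markers of tissues outside the head differed between CA and AA at the thermophase hours. The rhodopsin *ninaE*, 1 marker of the head, stood high on all 6 arrays. It measured 14.02, 13.90 and 14.11 on CA14, CA18 and CA22 and 14.04, 14.05 and 14.12 on AA14, AA18 and AA22. As a list, however, 21 phototransduction genes lay lower in CA at every hour. Their mean deviation from the 12-array average was -0.425 on CA18 and -0.051 on AA18. Over the same arrays, the mean deviation of 27 male accessory gland and testis genes from their average over all 12 arrays lay between -0.16 and 1.32 in CA and between -0.60 and 0.57 in AA. Gut enzymes (39 genes) lay between -0.19 and 1.13 in CA and between -0.34 and 0.49 in AA, and muscle contractile genes (22 genes) between -0.08 and 0.51 in CA and between -0.16 and 0.25 in AA. In the male, gut and muscle lists CA exceeded AA at every hour, and CA18 was the highest of the 6 arrays. In such bulk samples fewer cells of a type and less RNA per cell cannot be told apart. The ovary and egg shell genes (17 genes) ran the other way, from -0.21 to 0.12 in CA and from 0.16 to 0.42 in AA. The part of these tissues in the differences below was not tested. Beside many of them stands the difference from a fit on all 12 arrays with an index of body tissue as a covariate. The index is the mean deviation of 88 gut, muscle and male markers from the lists above. It is thus no independent check on those lists. That fit has no hour block, and CA10, an 18 °C array, had the lowest index (-1.282, next lowest -0.374 on AA22). How far CA10 set its estimates was not tested.

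**Figure D1:**
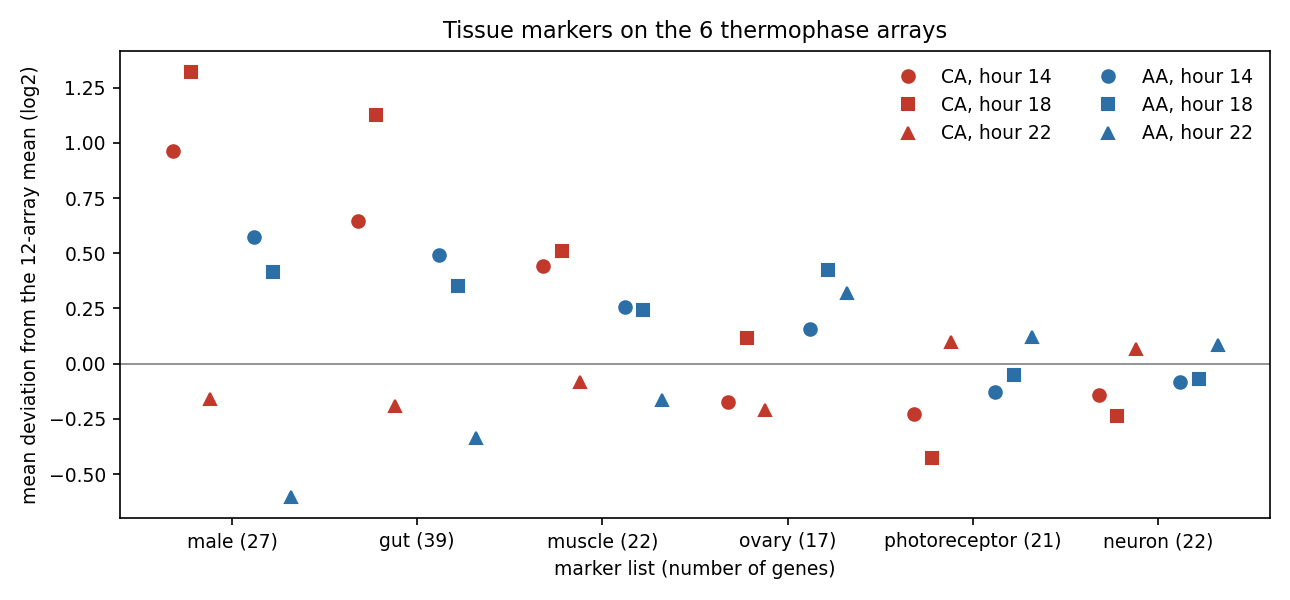
Mean log2 deviation of each marker list from its average over all 12 arrays (y axis), for the 3 CA arrays (red) and the 3 AA arrays (blue) of hours 14, 18 and 22, with the number of genes in parentheses. Male, gut and muscle markers are highest on CA18 (1.32, 1.13 and 0.51), and each CA symbol lies above the AA symbol of its hour, while each CA symbol of the ovary list lies below it. Photoreceptor and neuron symbols of CA also lie below those of AA at each hour, and are lowest on CA18 (-0.425 and -0.238).

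Most markers of the male reproductive tract were higher in CA in all 3 pairs. *EbpII*, an ejaculatory bulb protein, measured 11.59, 11.93 and 10.41 on CA14, CA18 and CA22 and 11.01, 10.83 and 9.70 on AA14, AA18 and AA22, a mean difference of 0.80 ± 0.27 or 1.74-fold. *Mst87F*, a structural protein of sperm, measured 9.44, 9.68 and 8.24 in CA and 9.01, 8.88 and 7.66 in AA at those hours, a difference of 0.61 ± 0.18. Both were lower at hour 22 than at hours 14 and 18 on both days, so that the levels of CA and AA overlapped although every pair differed one way. Of 27 male markers 23 were higher in all 3 pairs and 0 lower, with a median difference of 0.62 against -0.02 over all 8927 genes. With the index in the fit, which is built in part from these same markers, the median was 0.10. Over all 8927 genes 1437 were higher and 2065 lower in all 3 pairs. The counts of each list below are to be read beside these shares, since no list was tested against them.

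The 10 highest moderated statistics came from CG9920, CG12983, CG17752, CG31988, *bb8*, CG34107, *tHMG1*, CR17567, *EbpII* and *MtnC*, each with an adjusted p of 0.0602 from limma. Their mean differences lay between 0.57 for CG12983 and 1.02 for *MtnC*, which encodes a metallothionein that binds metal ions. *MtnC* measured 8.17, 8.75 and 7.01 on CA14, CA18 and CA22 and 7.33, 7.28 and 6.25 on AA14, AA18 and AA22. *tHMG1*, a testis HMG-box protein, differed by 0.58 ± 0.14, and *bb8*, which is needed for sperm mitochondria, by 0.77 ± 0.23. For these 10 genes the fit with the index gave differences between 0.10 for *tHMG1* and 0.47 for *MtnC*, smaller in each case.

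**Figure D2:**
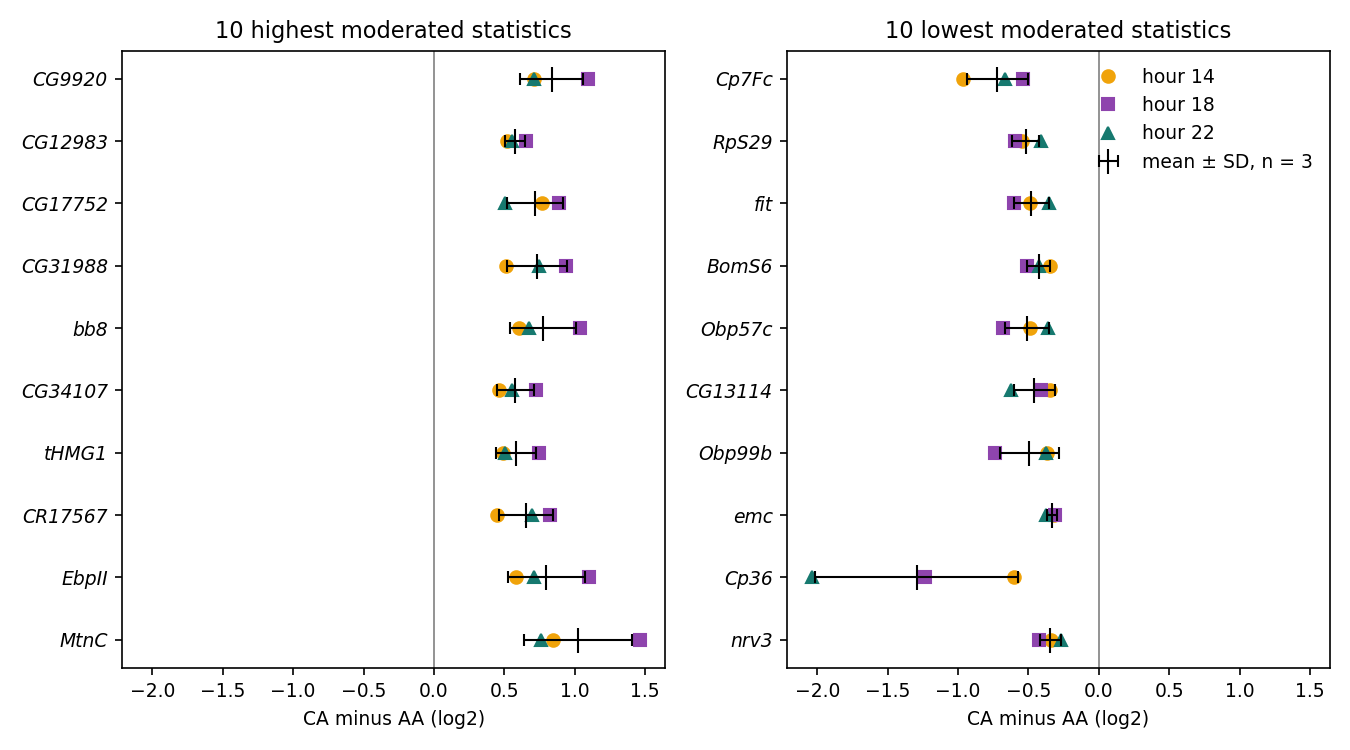
Paired CA minus AA differences (log2, x axis) at hours 14, 18 and 22 for the genes with the 10 highest and the 10 lowest moderated statistics, with the mean and SD of the 3 differences in black. All 30 differences on the left lie above 0 and all 30 on the right below it, and *Cp36* spreads most, with differences between -2.04 and -0.60.

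Digestive enzymes and serpins were also among the largest positive differences, and each of those named was widest apart at hour 18. *Mal-A1*, a maltase of the gut, measured 8.99, 10.10 and 8.04 on CA14, CA18 and CA22 and 8.82, 8.32 and 7.05 on AA14, AA18 and AA22, a difference of 0.98 ± 0.81. The related *Mal-A6* differed by 0.05 at hour 14, 1.94 at hour 18 and 0.80 at hour 22. For these 2 maltases the levels of both days lay closest together at 2 h after the step. The serpins *Spn77Bb* and *Spn77Bc*, which inhibit serine proteases, differed by 0.84 ± 0.32 and 0.92 ± 0.42, CG5402 by 0.88 ± 0.43, CG5107 by 0.92 ± 0.71 and *Acp32CD*, an accessory gland protein, by 0.84 ± 0.50. With the index in the fit these genes differed, in that order, by 0.32, 0.476, 0.399, 0.525 and 0.336. In that fit *Mal-A1* differed by 0.485 and *Mal-A6* by 0.481. Of 39 gut enzymes 22 were higher in all 3 pairs and 0 lower. Their median difference was 0.33, and it was 0.14 without the pair of hour 18. With the index in the fit, which is built in part from these same genes, it was -0.02. The protease *Jon74E* differed by 0.65 ± 0.36 and *Mal-A2* by 0.35 ± 0.12, and *Jon74E* turned to -0.12 with the index in the fit. Of 22 muscle genes 10 were higher in all 3 pairs and 0 lower, with a median of 0.17 (0.10 without the pair of hour 18 and 0.03 with the index), among them the troponin C *TpnC4* at 0.53 ± 0.19 (-0.35 with the index) and *bt*, the giant muscle protein projectin, at 0.40 ± 0.13.

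The lowest mean differences of one sign in every pair were those of the ovary thioredoxin *dhd* and the egg shell gene *Cp36*, while most of the 10 lowest moderated statistics belonged to other classes. *Cp36*, which encodes a major protein of the chorion or egg shell, measured 6.95, 7.07 and 7.04 on CA14, CA18 and CA22 and 7.56, 8.31 and 9.08 on AA14, AA18 and AA22. All 3 CA values lay below all 3 AA values, and the mean difference of -1.29 ± 0.72 was the largest in size among genes that went one way in every pair, with AA 2.45-fold above CA (adjusted p = 0.0855 from limma). The gap widened over the warm hours, with -0.60 at hour 14, -1.24 at hour 18 and -2.04 at hour 22. On the thermocycle day *Cp36* hardly moved, since its 3 values at 18 °C were 7.04, 6.95 and 7.02, whereas on the AA day it stood at 7.17, 7.19 and 7.46 at hours 2, 6 and 10 and went up at each later hour.

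Other chorion genes went the same way at different times. *Cp7Fc* measured 5.28, 5.13 and 5.43 in CA and 6.24, 5.67 and 6.10 in AA at hours 14, 18 and 22, a difference of -0.72 ± 0.22 (adjusted p = 0.0602 from limma). *Cp38* differed by -0.32, -0.61 and -1.52 at these hours and *yellow-g*, which hardens the egg shell layers, by -0.35, -0.43 and -1.09, so both widened toward hour 22 as *Cp36* did. *Cp18* had its gap at hours 14 and 18 (-0.70 and -1.12) and less at hour 22 (-0.17). The chorion gene *Cp15*, chosen after its values were seen, broke this order, since it measured 6.47, 10.02 and 6.29 in CA and 8.14, 9.70 and 7.45 in AA at hours 14, 18 and 22, and its highest value of the 6 was on CA18. *Cp19*, chosen likewise, was lower in all 3 pairs by -0.28 ± 0.35, nearly all of it at hour 18 (-0.68). Ovary and egg shell genes as a list had 0 of 17 higher and 7 lower in all 3 pairs, with a median difference of -0.28 against -0.02 over all genes. With the index, which holds no ovary gene, that median was -0.22, but it was -0.17 without the pair of hour 18 and -0.18 with no filter on low values.

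A pair of transcripts known from the germ line stood beside them. *dhd*, a thioredoxin of oocytes and early embryos, measured 5.49, 6.60 and 5.61 on CA14, CA18 and CA22 and 6.49, 7.02 and 7.41 on AA14, AA18 and AA22, a difference of -1.08 ± 0.69 with AA 2.11-fold higher. Its values of 3.70 on CA2 and 3.75 on AA2 lay below the 20th percentile of those arrays (4.148 and 4.173) and set no starting level, and by hour 10 it stood at 4.26 in CA, still at 18 °C, and at 6.82 in AA. *RpS5b*, a ribosomal protein paralogue used in the ovary, measured 7.15, 7.58 and 6.85 in CA and 7.71, 7.91 and 7.81 in AA at hours 14, 18 and 22, with 6.66 on CA10 and 7.87 on AA10. For both genes the thermophase levels of CA lay nearer to those of AA at hour 18 than at hours 14 and 22.

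**Figure D3:**
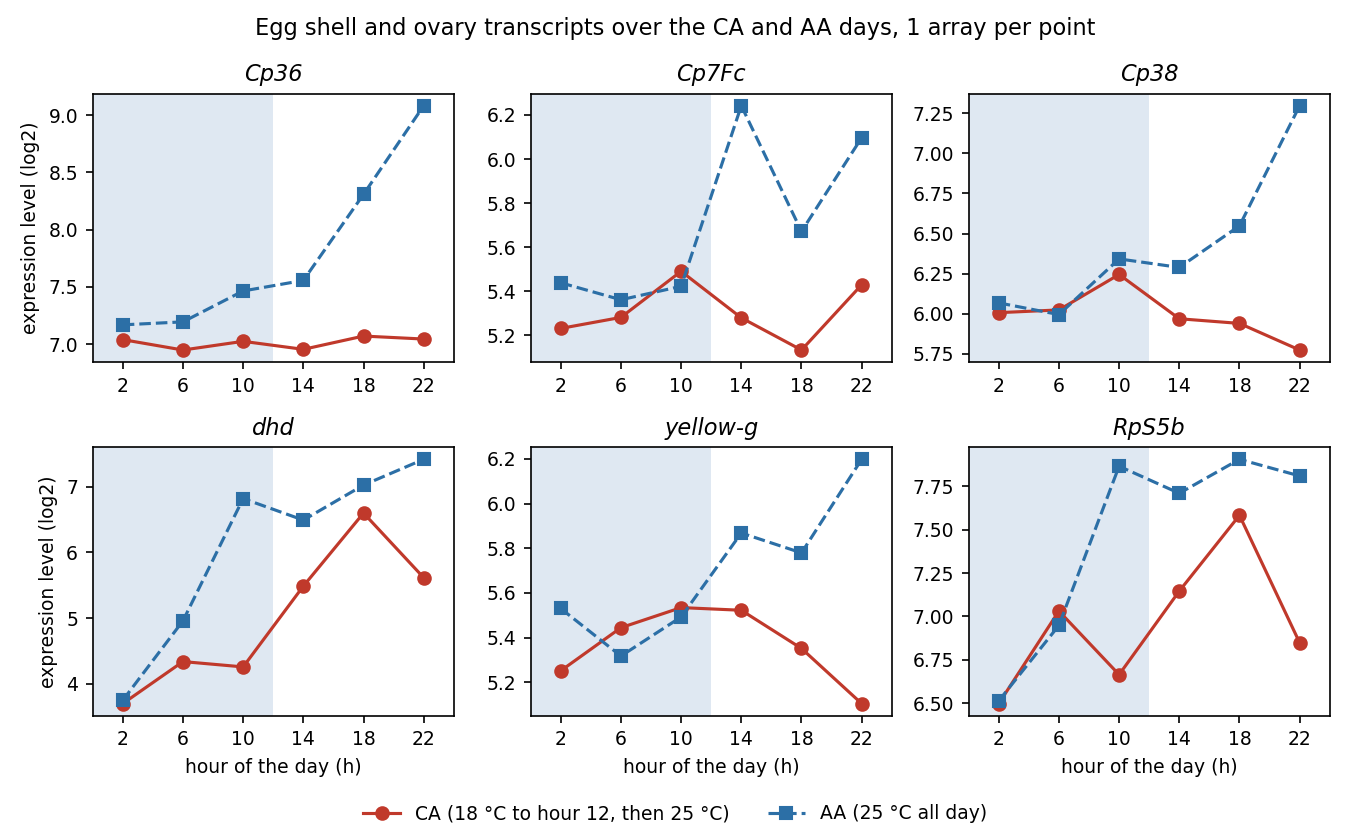
Expression level (log2, y axis) of 6 egg shell and ovary transcripts at hours 2 to 22 of the CA day (red circles) and the AA day (blue squares), 1 array per point, with the 18 °C hours of CA shaded. *Cp36* stays between 6.95 and 7.07 on the CA day and reaches 9.08 at AA22, and *dhd* ends the days at 5.61 in CA and 7.41 in AA.

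Odorant-binding protein genes lay mostly lower, and fat body genes were mixed. The secreted satiety factor gene *fit* measured 8.33, 8.64 and 9.22 on CA14, CA18 and CA22 and 8.81, 9.24 and 9.57 on AA14, AA18 and AA22, a difference of -0.48 ± 0.13 (adjusted p = 0.0691 from limma). It had also been lower at 18 °C, by -1.08 on average over hours 2, 6 and 10. Among 25 odorant-binding proteins, small carriers of odorants and other ligands, 1 was higher and 14 were lower in all 3 pairs, with a median of -0.17 (-0.10 both with the index and with no filter on low values). *Obp57c* measured 7.44, 7.48 and 8.06 in CA and 7.93, 8.16 and 8.42 in AA, a difference of -0.51 ± 0.16, and *Obp99b*, also a fat body transcript, differed by -0.49 ± 0.21. Of 14 fat body and yolk genes 4 were higher and 5 lower in all 3 pairs. Among those higher were the larval serum protein gene *Lsp2* (0.42 ± 0.26) and *Sodh1*, a sorbitol dehydrogenase (0.37 ± 0.21).

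The remaining transcripts with the lowest statistics belong to other classes. *RpS29*, a protein of the small ribosomal subunit, measured 6.41, 6.51 and 6.87 on CA14, CA18 and CA22 and 6.96, 7.10 and 7.28 on AA14, AA18 and AA22, and its CA values lay wholly below those of AA. The differences were -0.52 ± 0.10 for *RpS29*, -0.43 ± 0.08 for the immune-induced peptide *BomS6* and -0.46 ± 0.15 for CG13114. *emc*, which holds back basic helix-loop-helix activators, and *nrv3*, a sodium pump subunit of neurons, differed by -0.33 ± 0.04 and -0.34 ± 0.08, and these were small but even across the hours. With the index in the fit the 5 genes kept their sign, between -0.47 for *RpS29* and -0.24 for *emc*.

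*Hsp83* and CG1416 had mean differences of opposite sign in the 2 phases, although neither passed the test of the difference between phases (adjusted p = 0.137 and 0.409 from limma). *Hsp83*, the cytosolic Hsp90, measured 10.75, 10.45 and 10.41 on CA14, CA18 and CA22 and 10.24, 10.22 and 10.13 on AA14, AA18 and AA22, so all 3 CA values lay above all 3 AA values. The difference was 0.34 ± 0.15 or 1.27-fold (adjusted p = 0.116 from limma), and it was largest 2 h after the step, at 0.52. At 18 °C the order was opposite, with 9.27, 9.14 and 9.61 on CA2, CA6 and CA10 against 9.56, 9.79 and 10.32 on AA2, AA6 and AA10, a mean difference of -0.55. The thermophase difference of *Hsp83* thus exceeded that at 18 °C by 0.90, and the 2 differences share no array. That test of the difference between phases passed for 0 of 11145 probe sets (0%) at an adjusted p under 0.05 and for 1162 (10.4%) at an unadjusted p under 0.05, and the CA minus AA contrast at 18 °C alone also passed for 0 (0%), with 838 at an unadjusted p under 0.05.

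Its partners did not all do the same. CG1416, a predicted activator of the Hsp90 ATPase, measured 6.36, 6.66 and 6.51 on CA14, CA18 and CA22 and 6.10, 6.38 and 6.32 on AA14, AA18 and AA22, a difference of 0.25 ± 0.05. At 18 °C its difference was -0.38 ± 0.42, with 6.228, 5.985 and 5.567 on CA2, CA6 and CA10 against 6.225, 6.317 and 6.391 on AA2, AA6 and AA10. CG1416 was thus level with AA at hour 2 and furthest below it on CA10, the array with the lowest body-tissue index. *Stip1*, which links Hsp70 with Hsp90, had differed by -0.58 at 18 °C but stood at 7.23, 7.38 and 7.12 in CA and 7.17, 7.06 and 7.16 in AA in the thermophase, a difference of 0.11 ± 0.19. The Hsp40 *DnaJ-1* likewise went with -0.40 at 18 °C and 0.02 ± 0.13 in the thermophase. *Hsp83* and CG1416 thus lay above their AA levels at each of the 3 hours. *Stip1* was close to AA 2 h after the step (7.23 against 7.17) and above it at hour 18 (7.38 against 7.06). At the last hour it was slightly below AA (7.12 against 7.16). The mean of *DnaJ-1* was -0.053 without the pair of hour 14, so its difference at that hour lay above its mean of 0.02. *Stip1*, *DnaJ-1* and *Hsc70-4* are named after their values were seen.

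Across the Hsp70 and Hsp90 machinery 6 of 21 genes were higher in all 3 pairs and 0 lower, with a median of 0.06, which stayed 0.06 with the index in the fit. The constitutive *Hsc70-4* measured 9.25, 9.36 and 9.30 in CA and 8.98, 9.12 and 9.29 in AA, with almost no gap left at hour 22. The testis-expressed *Hsc70-2* differed by 0.42 ± 0.26 (0.15 with the index) and *Hsc70-1* by 0.27 ± 0.32. The CCT chaperonin, which folds actin and tubulin, had 4 of 8 subunits higher and 0 lower in all 3 pairs (median 0.09, and 0.05 where a gene's probe sets were averaged), with *CCT2* at 0.13 ± 0.11 and *CCT7* at 0.12 ± 0.09. Among chaperones and stress factors of the endoplasmic reticulum 8 of 16 were higher and 1 lower. *prtp*, a thioredoxin-domain protein of the endoplasmic reticulum, was very even, at 0.22, 0.20 and 0.22 over the 3 hours, and the co-chaperone *P58IPK* differed by 0.19 ± 0.12, whereas the 1 that was lower was *crc*, the fly ATF4 transcription factor (-0.18 ± 0.11). Small heat-shock proteins had 0 of 6 higher and 1 lower, namely *Hsp27* at -0.10 ± 0.05, and CG4461 differed by 0.12 ± 0.18.

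**Figure D4:**
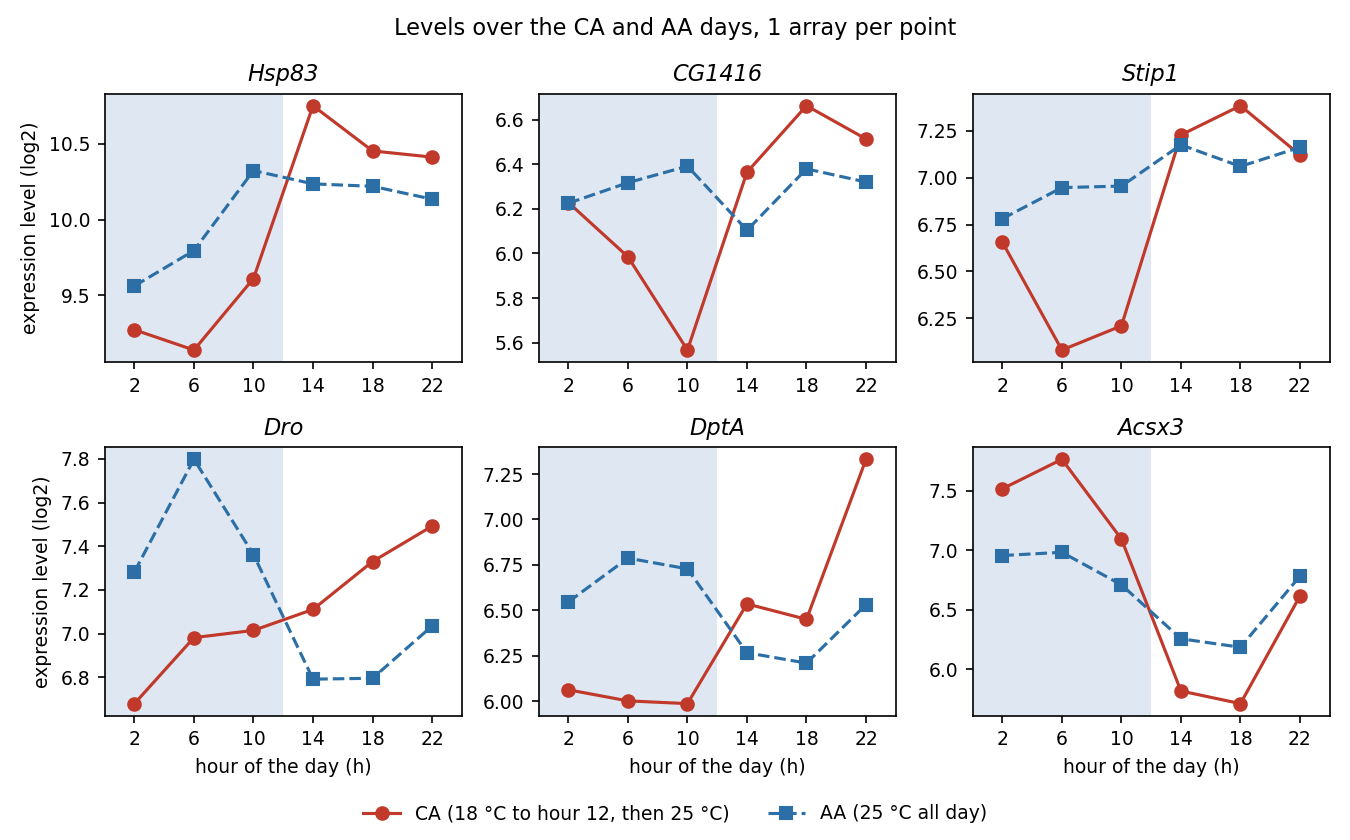
Expression level (log2, y axis) of 6 transcripts at hours 2 to 22 of the CA day (red circles) and the AA day (blue squares), 1 array per point, with the 18 °C hours of CA shaded. In each panel apart from *Stip1* all 3 thermophase points of CA lie on 1 side of the matched AA points, and *Hsp83* in CA goes with 9.61 at hour 10 and 10.75 at hour 14.

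The antimicrobial peptide genes *Dro* and *DptA*, known as targets of the Imd pathway, were above AA in the thermophase and below it at 18 °C, while their list as a whole had a thermophase median of -0.01. *Dro*, the peptide drosocin, measured 7.11, 7.33 and 7.49 on CA14, CA18 and CA22 and 6.79, 6.80 and 7.04 on AA14, AA18 and AA22, a difference of 0.44 ± 0.11 with no overlap (adjusted p = 0.0702 from limma). At 18 °C it had measured 6.68, 6.98 and 7.01 in CA and 7.28, 7.80 and 7.36 in AA, a difference of -0.59. *DptA*, a diptericin, differed by 0.27, 0.24 and 0.80 at hours 14, 18 and 22 and by -0.67 at 18 °C. For both the difference between phases, 1.02 for *Dro* and 1.11 for *DptA*, had an adjusted p of 0.133 from limma. With the index in the fit the thermophase differences were 0.51 for *Dro* and 0.56 for *DptA*. Over all 13 antimicrobial peptides 4 were higher and 3 lower in all 3 pairs, and among the lower was *BomS5* (-0.24 ± 0.15), while *Anp*, a peptide of the male ejaculatory duct, was higher by 0.60 ± 0.43 but by 0.03 with the index. *Drs*, the antifungal drosomycin, differed by -0.62 at hour 14, 0.22 at hour 18 and -0.14 at hour 22.

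Only 6 probe sets had an adjusted p under 0.2 in the test of the difference between phases, *Dro*, *DptA*, *Hsp83*, *Acsx3*, *Obp56a* and 1 without a gene name. *Acsx3*, an acyl-CoA synthetase that activates fatty acids, measured 5.82, 5.71 and 6.62 on CA14, CA18 and CA22 and 6.26, 6.18 and 6.78 on AA14, AA18 and AA22. Its difference was -0.36 ± 0.17 in the thermophase and 0.58 at 18 °C. *Obp56a*, named after its values were seen, differed by -0.19 ± 0.09 and by 0.47 at 18 °C. In these 2 the sign ran opposite to that of the chaperone and the peptides.

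Metabolic transcripts were mixed. *Hex-C*, a hexokinase of fat body and gut, measured 6.79, 6.78 and 6.54 on CA14, CA18 and CA22 and 6.41, 6.26 and 6.06 on AA14, AA18 and AA22, a difference of 0.46 ± 0.07 with no overlap (adjusted p = 0.0602 from limma). It was 0.37 with the index in the fit. Of 15 glycogen and trehalose genes 6 were higher and 4 lower in all 3 pairs, and *UGP*, which makes the glucose donor for glycogen, differed by 0.27 ± 0.16. Of 24 lipid genes 7 were higher and 5 lower, with the fatty acid synthases *FASN1* and *FASN2* at 0.21 ± 0.11 and 0.68 ± 0.54 and the female pheromone elongase *eloF* at -0.42 ± 0.19. *FASN2* was widest apart at hour 18 (1.293). With the index in the fit *FASN2* differed by 0.295, *FASN1* by 0.223 and *eloF* by -0.554. The cytochrome P450 *Cyp4g1*, which makes hydrocarbons in oenocytes, differed by 0.53 ± 0.21, but by -0.02 with the index. *Cyp4d21*, known as sex-specific enzyme 1, measured 4.71, 5.47 and 7.52 in CA and 5.71, 6.42 and 7.70 in AA, so it was about 1 unit lower at 2 and 6 h after the step (-0.99 and -0.94) and close to AA at 10 h (-0.18). Its mean difference was -0.70, and -0.34 with the index in the fit. *Cyp4d21* is among the genes picked for a smaller difference at hour 22, so that closeness is not a result.

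Proteasome subunits lay slightly higher and ribosomal proteins slightly lower. Of 36 proteasome genes 18 were higher and 0 lower in all 3 pairs, with a median of 0.11 (0.06 with the index and 0.05 without the pair of hour 18), and by hour it was 0.09, 0.21 and 0.03. *Prosbeta5*, a catalytic subunit, measured 7.99, 8.08 and 7.93 on CA14, CA18 and CA22 and 7.80, 7.87 and 7.71 on AA14, AA18 and AA22, an even difference of 0.21 ± 0.02. *Prosbeta6* differed by 0.23 ± 0.05, and the testis subunits *Prosalpha6T* and *Prosbeta5R1* by 0.36 ± 0.19 and 0.31 ± 0.11. Of 38 cytosolic ribosomal proteins 1 was higher and 18 lower, with a median of -0.07 (-0.02 with the index and -0.03 without the pair of hour 18). *RpS28b* differed by -0.25 ± 0.09, and the 1 that was higher was the paralogue *RpL22-like* (0.28 ± 0.21). In the cryophase the ribosomal list had a median of -0.10, so the list lay low on the CA day in both phases.

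Phototransduction genes lay lower, most of all at hour 18. Of 21 phototransduction genes 0 were higher and 12 lower in all 3 pairs, and the median was -0.09 at hour 14, -0.42 at hour 18 and -0.04 at hour 22. The light-gated channel *trp* measured 8.89, 8.74 and 9.44 on CA14, CA18 and CA22 and 9.25, 9.40 and 9.67 on AA14, AA18 and AA22, a difference of -0.42 ± 0.22. The eye protein kinase C *inaC* differed by -0.31 ± 0.15, the G protein subunit *Gbeta76C* by -0.30 ± 0.27 and the arrestin *Arr2* by -0.23 ± 0.17. CA18, the lowest array of this list, was also the highest in gut, muscle and male markers. The median over all 3 hours was -0.16, and it was -0.08 without the pair of hour 18 and -0.04 with the index in the fit. Of 24 genes of tyrosine, dopamine, pteridine and eye pigment metabolism 0 were higher and 6 lower (median -0.09, and -0.05 without the pair of hour 18), a share close to the 2065 of 8927 over all genes. *Pu*, the first enzyme of pteridine synthesis, measured 7.61, 7.56 and 7.78 in CA and 7.77, 7.97 and 8.24 in AA, a difference of -0.35 ± 0.16. *ple*, the tyrosine hydroxylase of dopamine synthesis, differed by -0.23 ± 0.16, *t*, which frees dopamine and histamine from their conjugates, by -0.37 ± 0.30, and the decarboxylase *Tdc1* by -0.20 ± 0.07.

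Of 8 clock factors 1 was higher and 2 were lower in all 3 pairs, and their median difference was -0.01. The share lower is close to the 2065 of 8927 over all genes. *Clk* measured 6.20, 6.14 and 6.52 on CA14, CA18 and CA22 and 6.37, 6.43 and 6.79 on AA14, AA18 and AA22, lower in all 3 pairs by -0.25 ± 0.07 (adjusted p = 0.148 from limma) and by -0.17 with the index. *vri*, a repressor of *Clk*, measured 8.53, 8.50 and 8.47 in CA and 8.43, 8.37 and 8.28 in AA, higher in all 3 pairs by 0.14 ± 0.04, and CA had exceeded AA by the same 0.14 at 18 °C. *Pdp1*, an activator of *Clk*, differed by -0.32 at hour 14 and by -0.09 and -0.04 at hours 18 and 22. *tim* measured 7.636, 8.004 and 8.413 in CA and 7.879, 8.147 and 8.079 in AA, so it lay below AA at hours 14 and 18 (-0.24 and -0.14) and above it at hour 22 (0.33), with a mean of -0.02 ± 0.31. *per* had a similar order at a smaller size, with -0.12, -0.09 and 0.14. *cry*, the blue-light receptor, differed by 0.01 ± 0.12, the repressor *cwo* by 0.01 ± 0.18 and *cyc* by -0.002 ± 0.12, and for *per*, *tim*, *cry*, *cwo* and *cyc* the mean changed sign when 1 pair was left out.

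Some transcripts differed more shortly after the step than 10 h after it. Those named here were picked because the difference at hour 22 was at least 3 times smaller than at hour 14. That fall is thus the rule of choice and not a result. CG10513 differed by 1.02, 0.68 and -0.21 at hours 14, 18 and 22, the cathepsin *CtsL3* by 0.96, 0.09 and 0.06, and CG32647 by 0.90, -0.09 and 0.28. CG12116 differed by 0.94, -0.03 and -0.26, and it had stood at 11.19 on CA10 and 10.20 on AA10 before measuring 10.66 on CA14 and 9.72 on AA14. Its CA level thus came down over the warm hours, while AA stayed between 9.72 and 9.83. On the low side, besides *Cyp4d21*, *Cp18* and *Drs*, CG14499 differed by -0.83, 0.20 and -0.23. Across all probe sets the SD of the single differences was 0.16 at hour 14, 0.25 at hour 18 and 0.15 at hour 22. Differences over 0.5 numbered 80, 466 and 103 at these hours and those under -0.5 numbered 30, 92 and 24, so hour 18 stood apart. There was 1 array per day at an hour, so these single differences have no replicate and no test.

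**Figure D5:**
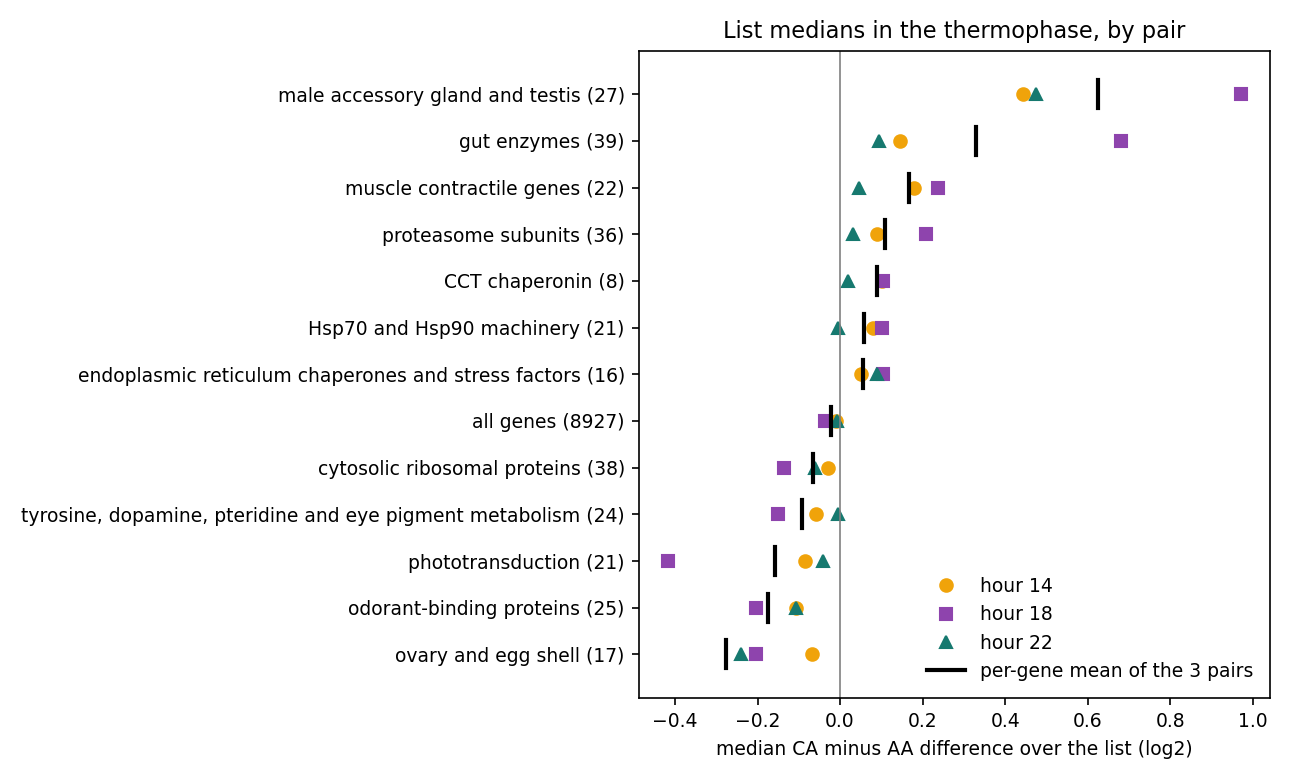
Median CA minus AA difference (log2, x axis) over the genes of each list at hours 14, 18 and 22 (symbols), and the median of the per-gene mean of the 3 pairs (black bar), with the number of genes in parentheses. The male, gut and phototransduction lists are widest apart at hour 18 (0.97, 0.68 and -0.42), and the median over all 8927 genes is -0.02.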

How the data were processed

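The authors prepared the arrays of this experiment with RMA, whose version was not given in the sources used here, and deposited expression levels whose range fits log2 values, a base read from that range. Of 14010 probe sets, 12443 had 1 gene name in the platform annotation, 20 were named through the RefSeq table, 327 had several names, 1176 none and 44 were controls. Probe sets were kept where at least 7 of the 12 values exceeded their array's 20th percentile.

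CA14, CA18 and CA22 were compared with AA14, AA18 and AA22 by limma 3.58.1 under R 4.3.3, with the hour as a block, prior degrees of freedom of 5.12 and Benjamini-Hochberg adjustment over all 11145 probe sets. Samples of the same hour deviated together from their group means (correlations 0.488, 0.547 and 0.844 over probe sets), so the hours pair the samples. P-values measure the spread of 3 hours with 1 array per hour and day, and the number of arrays limits the precision. The fit was tested on simulated data. The difference between phases was tested in a fit of all 12 arrays with the hour as a block. Figures were drawn with matplotlib 3.10.9 under Python 3.11.15.

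Lists are described by counts and medians, with no test. A gene with several probe sets was taken at its brightest. Named genes were the 10 highest and 10 lowest moderated statistics, the 8 highest and 8 lowest mean differences of one sign in all 3 pairs, the 4 highest and 4 lowest differences at hour 14 that were at least 3 times smaller at hour 22, the clock factors, and up to 4 members of each list with the smallest p. Comparisons, members and lists were chosen with earlier results of these data known. Alternatives were no filter, another filter, no hour block, other sets of arrays, a common median, another prior, each pair left out, the body-tissue index, a looser threshold and averaged probe sets. Promoter motifs were not searched here.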

Additional observations from a re-analysis of the deposited data

How the results depend on the processing

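The number of probe sets at an adjusted p under 0.05 was 0 in the reported fit, 21 with a trended and robust prior (19 higher and 2 lower), 614 at an adjusted p under 0.2, and between 0 and 298 when 1 pair was left out. It was 0 with no filter, the other filter, no replicate block, all 12 arrays, a common median or the body-tissue index. Without the replicate block, 118 probe sets were higher and 284 lower at an unadjusted p under 0.05 on 6 arrays, and 203 and 474 on 12 arrays in 4 groups, against 833 and 817. With the index they were 318 and 378. Leaving out 1 pair gave between 676 and 889 higher and between 472 and 709 lower, and between 2540 and 2788 higher and between 3645 and 4175 lower in both remaining pairs. These last counts ask for 2 pairs instead of 3. Setting arrays to a common median gave 891 higher and 682 lower.

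Of 103 named genes, 91 kept their sign under each of the 11 alternatives run for single genes. Averaged probe sets were run for list medians alone. That count is no measure of robustness. The alternatives in filter, hour block, set of arrays and prior left the estimates unchanged, so they could not turn a sign. A gene of one sign in every pair, as many were picked to be, cannot turn when 1 pair is left out. For such genes only the common median and the index could change the sign. With the index in the fit *TpnC4* was at -0.351, *Jon74E* at -0.121, *Cyp4g1* at -0.024, CG4461 at -0.002, *cwo* at -0.016, *per* at 0.042 and *cyc* at 0.059, and with a common median *cyc* was at 0.007. Leaving out 1 pair gave between -0.147 and 0.454 for CG12116, -0.032 and 0.078 for *cry*, -0.098 and 0.063 for *cwo*, -0.039 and 0.067 for *cyc*, -0.053 and 0.065 for *DnaJ-1*, -0.378 and 0.038 for *Drs*, -0.106 and 0.025 for *per*, and -0.193 and 0.095 for *tim*. The cause was not tested in any of these. List medians changed sign in 26 of 252 comparisons, among them that of gut enzymes with the index, which itself holds gut enzymes. The index and the CA minus AA contrast run together in the thermophase, so that fit also takes out any response along the index. With 1 array per hour, a difference at a single hour cannot be told apart from that array's own deviation.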

Other observations

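Cold-responsive genes were mixed, with 2 of 5 higher and 1 lower in all 3 pairs. *smp-30*, a calcium-binding regucalcin relative, measured 9.56, 9.21 and 8.88 on CA14, CA18 and CA22 and 8.84, 8.98 and 8.71 on AA14, AA18 and AA22, so its difference was 0.73 at hour 14 and 0.17 at hour 22. *Fst* (Frost), known from recovery after cold, differed by -0.20 ± 0.13 and was lower in all 3 pairs. Among activity-regulated genes 0 of 8 were higher and 3 lower, with *Amph*, an amphiphysin, at -0.24 ± 0.10. In the takeout family, which holds putative carriers of small lipids, 3 of 15 were higher and 6 lower, and the highest was *Jhbp5* at 0.64 ± 0.37 (0.06 with the body-tissue index as a covariate).

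Translation factors and energy genes did not move one way. Of 38 initiation and elongation factors 8 were higher and 15 lower in all 3 pairs, with *eEF1delta* at 0.33 ± 0.07 and *eIF3m* at -0.24 ± 0.10. Of 70 genes of oxidative phosphorylation 24 were higher and 12 lower (median 0.03, and -0.01 with the index), and of 63 mitochondrial ribosomal proteins 4 were higher and 17 lower (median -0.06, and -0.04 without the pair of hour 18). SR splicing factors had 0 of 16 higher and 6 lower, with a median of -0.04 against -0.02 over all genes. Neuronal markers had 0 of 22 higher and 6 lower (median -0.07, and -0.04 without the pair of hour 18). Neuropeptides had 2 of 24 higher and 6 lower, with a median of -0.23 at hour 18 and 0.00 at hour 22. For neuronal markers, neuropeptides and mitochondrial ribosomal proteins the share lower is close to the 2065 of 8927 over all genes.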
